A study of Mus with 15 samples.

Results

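The 9 genes described here mark the regeneration and the loss of innervation of skeletal muscle, and were taken as the rows of a gene count table whose symbol is Pax7, Myf5, Myod1, Myog, Myh3, Myh8, Chrna1, Chrng or Ncam1. They are 9 of the 55657 gene models in the table. Each symbol matched a single model, and all 9 had enough counts to be tested, among 17122 models that did.

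Skeletal muscle is repaired by satellite cells, stem cells that lie under the sheath of each fiber. After injury they divide as myoblasts and then fuse, and the transcription factors Pax7, Myf5, Myod1 and Myog act in turn along that path. New fibers first make the embryonic and perinatal myosin heavy chains, Myh3 and Myh8, before adult myosins replace them. A fiber that loses its nerve again makes acetylcholine receptors, including the fetal subunit Chrng, along its whole surface, and makes more of the adhesion molecule Ncam1. In the mouse, skin carries its own thin sheet of skeletal muscle, the panniculus carnosus, so whole skin can hold RNA of this kind.

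Poly-A RNA of frozen mouse skin was sequenced in 15 libraries, 5 from unwounded skin of healthy mice (normal skin), 5 from wounds of healthy mice (healthy wound) and 5 from wounds of type I diabetic mice (diabetic wound). The study's title speaks of enucleated mesenchymal stem cells and wound repair, and no treated wound is among the libraries used here. Strain, sex, age, time after wounding and how the mice were made diabetic were not given in the sources used here, and uninjured diabetic skin was not analysed here, so effects of diabetes on skin and on its wounds cannot be told apart. Nothing in the labels ties a library to its own animal, and p-values therefore measure only the spread between these samples, which may be technical.

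Depth was alike, from 15.7 to 17.8 M counts per library, and the group means were 16.9 M (normal skin), 17.5 M (healthy wound) and 16.2 M (diabetic wound). M stands for mega, and levels are given as CPM, counts per M counts after scaling of library sizes. Skeletal muscle was present in every library: 19 adult muscle genes, all but Tnnc2 with counts in each group, summed in normal skin to 4504 to 45794 CPM, in healthy wound to 1898 to 13733 CPM and in diabetic wound to 2851 to 26370 CPM. The mean log2 CPM of the 18 of these genes that could be tested, called the adult muscle index below, was 9.38 ± 1.34, 7.48 ± 1.28 and 8.48 ± 1.18 in the same order (SD, n = 5 per group). Fewer cells of a type and less RNA per cell cannot be told apart in such bulk samples, and this holds for every level below.

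In diabetic wounds edgeR called Myh3, Myh8 and Ncam1 lower than in normal skin, and Ncam1 also lower than in healthy wounds. It called 8.44% and 4.02% of all genes lower in these comparisons. Against normal skin either limma-voom fit called 0 of the 9 genes, and the groups overlapped for each of them. The Myh3 and Myh8 calls were lost without normal skin replicate 2. The Ncam1 call against healthy wounds was kept in 4 of 15 fits with 1 library left out. Myh3 and Myh8 were at a median of 1.40 and 0.905 CPM in diabetic wounds against 28.8 and 31.1 CPM in normal skin. The transcription factors and the receptor subunits Chrna1 and Chrng varied widely between libraries of a group, by 128-fold for Myod1 in healthy wounds, and edgeR called none of them in any comparison, where DESeq2 called Myod1 and Chrng lower in diabetic wounds against normal skin. None of the 9 genes passed the edgeR test in healthy wounds against normal skin.

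**Figure D1:**
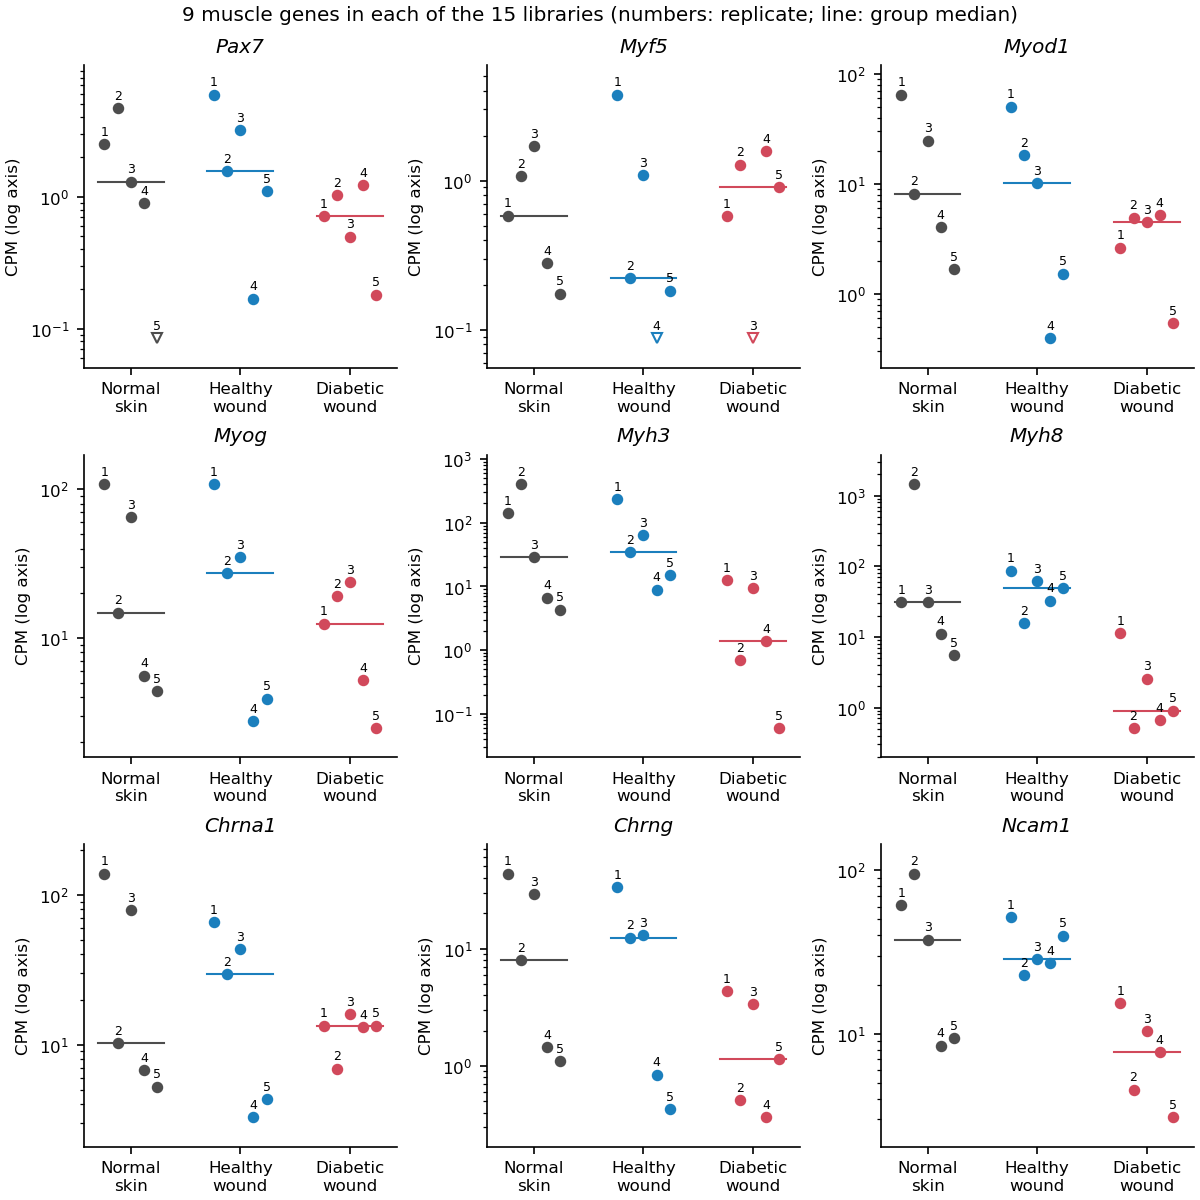
CPM (log axis) of each of the 9 genes in the 15 libraries, with the replicate number above each point and a line at the group median; open triangles mark libraries with 0 counts, drawn below the lowest value. Myh8 and Ncam1 show diabetic wounds entirely below healthy wounds, whereas normal skin and healthy wound replicates 4 and 5 lie low for Myod1, Myog, Chrna1 and Chrng.

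Pax7 (ENSMUSG00000028736, chromosome 4, 139737062 to 139833528, minus strand) encodes the transcription factor that defines the satellite cell. Its CPM was 2.50, 4.67, 1.30, 0.892 and 0 in normal skin replicates 1 to 5, 5.95, 1.56, 3.20, 0.169 and 1.10 in healthy wounds, and 0.709, 1.03, 0.499, 1.22 and 0.181 in diabetic wounds. The 3 groups overlapped, and the highest diabetic wound lay below the highest library of either other group. The mean was 1.87 ± 1.80, 2.39 ± 2.27 and 0.726 ± 0.412 CPM (SD, n = 5 per group). Diabetic against healthy wounds gave a log2 fold change of -1.71 with an SE of 0.95, and the edgeR Benjamini-Hochberg adjusted p over all genes tested was 0.242.

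Myf5 (ENSMUSG00000000435, chromosome 10, 107482908 to 107486134, minus strand) encodes an early myogenic factor of satellite cells and myoblasts. Its CPM was 0.582, 1.07, 1.70, 0.279 and 0.175 in normal skin, 3.78, 0.222, 1.08, 0 and 0.183 in healthy wounds, and 0.580, 1.28, 0, 1.58 and 0.905 in diabetic wounds. Over the 15 libraries together it had the fewest counts of the 9 genes, with 64, 94 and 70 counts over the 5 libraries of each group, and the groups overlapped. A count of 0 in a library allows up to 3 counts, which covers counting error only. Its mean was 0.761 ± 0.630, 1.05 ± 1.58 and 0.870 ± 0.616 CPM (SD, n = 5 per group), and it had the only positive log2 fold change of the 9 genes in diabetic wounds against normal skin, 0.19 ± 1.07 (SE), with an edgeR adjusted p of 0.913.

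Myod1 (ENSMUSG00000009471, chromosome 7, 46376474 to 46379099, plus strand) encodes the factor that commits myoblasts to muscle and is also raised in denervated fibers. Its CPM was 64.9, 8.13, 24.7, 4.07 and 1.69 in normal skin, 50.4, 18.1, 10.2, 0.393 and 1.53 in healthy wounds, and 2.64, 4.94, 4.49, 5.23 and 0.543 in diabetic wounds. Replicates 1 to 3 of both healthy-mouse groups lay above every diabetic wound, while replicates 4 and 5 lay inside the diabetic wound range or, in healthy wound replicate 4, below it. The means were 20.7 ± 26.3, 16.1 ± 20.4 and 3.57 ± 1.97 CPM (SD, n = 5 per group). In diabetic wounds the log2 fold change was -2.53 (SE 1.11) against normal skin and -2.17 (SE 1.10) against healthy wounds, with edgeR adjusted p-values of 0.116 and 0.202.

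Myog (ENSMUSG00000026459, chromosome 1, 134289989 to 134292548, plus strand) encodes myogenin, the factor that drives the last step of differentiation and, in denervated fibers, receptor genes. Its CPM was 109, 14.8, 65.0, 5.57 and 4.37 in normal skin, 109, 27.4, 35.0, 2.75 and 3.91 in healthy wounds, and 12.5, 19.2, 23.8, 5.17 and 2.47 in diabetic wounds. Replicates 4 and 5 were the lowest of each of the 3 groups, and the groups overlapped. Diabetic wounds had a log2 fold change of -1.65 (SE 1.02) against normal skin and -1.50 (SE 1.02) against healthy wounds, with edgeR adjusted p-values of 0.259 and 0.342. Per kb of gene model Myog stood above the other 3 transcription factors in every group, at a median of 9.90 (normal skin), 18.3 (healthy wound) and 8.36 (diabetic wound) CPM per kb against 4.37, 5.46 and 2.41 CPM per kb for Myod1. Pax7 and Myf5 lay at or under 0.435 CPM per kb in all 3 medians.

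Myh3 (ENSMUSG00000020908, chromosome 11, 67078300 to 67102291, plus strand), the embryonic myosin heavy chain, had CPM of 141, 404, 28.8, 6.69 and 4.31 in normal skin. It was at 236, 34.5, 63.8, 8.88 and 14.9 CPM in healthy wounds and at 12.4, 0.705, 9.48, 1.40 and 0.0603 CPM in diabetic wounds. The lowest diabetic wound value is a single read, and diabetic wound replicates 1 and 3 overlapped the low libraries of both other groups. The mean was 117 ± 170, 71.6 ± 94.2 and 4.82 ± 5.72 CPM (SD, n = 5 per group). Myh3 fell in diabetic wounds against normal skin, with a log2 fold change of -4.60 (SE 1.43) and an edgeR adjusted p of 0.0367. That call was lost without normal skin replicate 1 (adjusted p 0.0571) or 2 (0.1) and without diabetic wound replicate 2 (0.078), 4 (0.0598) or 5 (0.0707), with log2 fold changes of -4.52 to -3.25. Against healthy wounds the log2 fold change was -3.89 (SE 1.39) and the edgeR adjusted p 0.0839.

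Myh8 (ENSMUSG00000055775, chromosome 11, 67277124 to 67308634, plus strand), the perinatal myosin heavy chain, had CPM of 31.0, 1458, 31.1, 11.1 and 5.48 in normal skin. It was at 86.6, 15.8, 61.4, 32.4 and 49.4 CPM in healthy wounds and at 11.4, 0.513, 2.56, 0.669 and 0.905 CPM in diabetic wounds. All 5 diabetic wounds lay below all 5 healthy wounds, and normal skin replicate 2 stood far above every other library. The mean was 307 ± 643, 49.1 ± 27.1 and 3.21 ± 4.65 CPM (SD, n = 5 per group). Myh8 fell in diabetic wounds against normal skin, with a log2 fold change of -6.58 (SE 1.60) and an edgeR adjusted p of 0.0134. Without normal skin replicate 2 the log2 fold change was -2.62 and the adjusted p 0.0519, so the size of that fall rested on that library. Against healthy wounds the log2 fold change was -3.94 (SE 1.42) with an edgeR adjusted p of 0.0881, which became 0.0177 without normal skin replicate 2. The healthy wound against normal skin value of -2.64 (SE 1.32; edgeR adjusted p 0.347) turned to 1.31 without that library. The myosin heavy chain genes on chromosome 11 share near-identical stretches, and the counting method is not given in the sources used here, so reads may be split between Myh3, Myh8 and the adult Myh1, Myh2 and Myh4.

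Chrna1 (ENSMUSG00000027107, chromosome 2, 73563215 to 73580338, minus strand) encodes the alpha subunit of the muscle acetylcholine receptor, which both fetal and adult receptors hold. Its CPM was 139, 10.3, 79.0, 6.75 and 5.24 in normal skin, 65.9, 29.5, 43.6, 3.26 and 4.33 in healthy wounds, and 13.4, 6.93, 15.9, 13.1 and 13.4 in diabetic wounds. Diabetic wounds lay in a narrow band inside the range of both other groups, with an SD of 3.34 CPM against 59.6 and 26.7 CPM (n = 5 per group). Replicates 4 and 5 of both healthy-mouse groups lay below every diabetic wound. The means were 48.1, 29.3 and 12.6 CPM, and the medians 10.3, 29.5 and 13.4 CPM. Its log2 fold change in diabetic wounds was -1.94 (SE 0.92) against normal skin and -1.22 (SE 0.91) against healthy wounds, with edgeR adjusted p-values of 0.146 and 0.386.

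Chrng (ENSMUSG00000026253, chromosome 1, 87204657 to 87212694, plus strand) encodes the gamma subunit of the fetal receptor, which the epsilon subunit Chrne replaces in innervated adult fibers. Its CPM was 43.5, 7.9995, 29.0, 1.45 and 1.11 in normal skin, 33.1, 12.3, 13.0, 0.843 and 0.427 in healthy wounds, and 4.32, 0.513, 3.37, 0.365 and 1.15 in diabetic wounds. Replicates 4 and 5 of both healthy-mouse groups lay inside the diabetic wound range, and their replicates 1 to 3 above it. The means were 16.6 ± 18.9, 11.95 ± 13.3 and 1.94 ± 1.79 CPM (SD, n = 5 per group). The log2 fold change of diabetic wounds was -3.09 (SE 1.19) against normal skin and -2.62 (SE 1.17) against healthy wounds, with edgeR adjusted p-values of 0.0781 and 0.155.

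Ncam1 (ENSMUSG00000039542, chromosome 9, 49502136 to 49798925, minus strand) encodes a cell adhesion molecule made by satellite cells and denervated fibers and, outside muscle, by Schwann cells, nerves and, in humans, natural killer (NK) cells. Its CPM was 61.0, 95.5, 37.6, 8.47 and 9.44 in normal skin, 51.7, 22.8, 28.7, 27.1 and 39.8 in healthy wounds, and 15.3, 4.55, 10.4, 7.72 and 3.08 in diabetic wounds. All 5 diabetic wounds lay below all 5 healthy wounds, while normal skin replicates 4 and 5 lay among the diabetic wounds. The means were 42.4 ± 36.8, 34.0 ± 11.7 and 8.22 ± 4.89 CPM (SD, n = 5 per group). Ncam1 fell in diabetic wounds against normal skin by 2.37 on the log2 scale (SE 0.62; edgeR adjusted p 0.0182), a call kept without each of the 15 libraries in turn (adjusted p 0.0114 to 0.0472). It also fell against healthy wounds by 2.05 (SE 0.61; edgeR adjusted p 0.0479). That second call was kept only without normal skin replicate 2, 4 or 5 or diabetic wound replicate 3, and with any of the other 11 libraries left out the adjusted p was 0.0506 to 0.112.

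Markers of Schwann cells, and of NK cells, for which Ncam1 is named above in humans only, were measured beside it. The 8 NK cell genes, none of them at 0 in any group, had summed levels of 7.10 to 19.9 CPM (normal skin), 8.17 to 29.1 CPM (healthy wounds) and 0.834 to 6.24 CPM (diabetic wounds). The 11 Schwann cell genes, likewise with none at 0, summed to 204 to 855, 238 to 405 and 198 to 579 CPM, and these ranges overlapped. In diabetic wounds edgeR called 2 of 8 NK cell genes lower against each other group, Prf1 and Ncr1 against normal skin and Ncr1 and Klre1 against healthy wounds. It called 8.44% and 4.02% of all genes lower in these comparisons. At an unadjusted p under 0.05 the NK cell count was 6 of 8 in each, with median log2 fold changes of -2.30 and -2.25. Against normal skin DESeq2, limma-voom and limma-voom with quality weights called 3, 1 and 2 of them lower, and against healthy wounds 5, 4 and 5. Of all genes these fits called 28.2%, 20.1% and 23.6%, and 18.6%, 9.33% and 23.8%, in either direction. Of the Schwann cell genes edgeR called 1 lower against normal skin (Gfra3) and 0 against healthy wounds. Against healthy wounds 1 Schwann cell gene had an unadjusted p under 0.05, and DESeq2 and either limma-voom fit called 0. The median log2 fold change there was 0.0030. Ncam1 correlated across the 15 libraries with the mean log2 CPM of the NK cell genes at r = 0.82, and at r = 0.62 after each group's mean was subtracted; the values for Myh8, a gene of muscle fibers, were 0.83 and 0.62. The part of either cell type in the Ncam1 result was not tested. Summed levels of some other tissue markers were lower in diabetic than in healthy wounds, with 6 fibroblast genes at 1668 to 15774 CPM against 22497 to 102917 CPM in healthy wounds and 6 smooth muscle genes at 81.8 to 237 against 392 to 702 CPM. All 4 hair follicle genes were called lower in diabetic wounds against both other groups by edgeR and DESeq2, and 0 by either limma-voom fit. Of all genes, edgeR called 8.44% lower against normal skin and 4.02% against healthy wounds. The 4 hair follicle genes summed to 3.90 to 5493 CPM (normal skin), 7.71 to 9463 CPM (healthy wounds) and 4.20 to 10.04 CPM (diabetic wounds). The sum of 5 neutrophil genes was 50.1 to 329 CPM in normal skin and overlapped between the wounds, at 740.1 to 3902 CPM (healthy) and 730.5 to 2823 CPM (diabetic). The part of these cells in the results was not tested.

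Read over the 9 genes, healthy wounds against normal skin gave 0 calls in either direction, where edgeR called 1.13% of all genes tested. At an unadjusted p under 0.05 the count was also 0 (16.3% of all genes), and DESeq2, limma-voom and limma-voom with sample quality weights each called 0, where they called 6.72%, 1.11% and 11% of all genes. The log2 fold changes ran from -2.64 for Myh8 to 0.47 for Myf5, with a median of -0.36 beside 0.01 for all genes. Diabetic wounds against normal skin gave 3 lower and 0 higher of 9, where edgeR called 8.44% of all genes lower and 10.7% higher. The median was -2.37 beside -0.01 for all genes, and 8 of 9 values were negative; DESeq2 called 4 of the 9 (Myh3, Ncam1, Myod1 and Chrng, and gave no adjusted p for Myh8), where it called 28.2% of all genes. Both limma-voom fits called 0 of the 9, where they called 20.1% and, with quality weights, 23.6% of all genes. Diabetic against healthy wounds gave 1 lower and 0 higher of 9, where 4.02% of all genes were called lower and 5.13% higher, with a median of -2.05 beside -0.02 and all 9 values negative. DESeq2 called 2 there (Myh3 and Ncam1), limma-voom 0 and limma-voom with quality weights 2 (Myh8 and Ncam1), near or below the shares of all genes that they called, 18.6%, 9.33% and 23.8%. The groups did not overlap for 2 of 9 genes, Myh8 and Ncam1, both lower in diabetic wounds, where this held for 4.52% of all genes and the reverse for 5.27%. No gene of the 9 had groups apart in the other comparisons, where 5.26% of genes were apart with diabetic wounds below normal skin and 6.09% above it, and 2.89% with healthy wounds below normal skin and 3.87% above it. These comparisons share samples: normal skin is in the first and second, the diabetic wounds are in both diabetic comparisons, and the healthy wounds are in the other pair.

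Adult muscle RNA did not follow the same order of groups. In healthy wounds against normal skin all 18 adult muscle genes tested had negative log2 fold changes with a median of -1.93. Of them edgeR called 0 (15 at an unadjusted p under 0.05), limma-voom 0, limma-voom with quality weights 6 and DESeq2 9. Of all genes edgeR called 1.13% (16.3% at an unadjusted p under 0.05) in either direction. The other 3 fits called 1.11%, 11% and 6.72% in the same order. In diabetic wounds against normal skin the median was -0.81, and Myh1 (-2.75; edgeR adjusted p 0.0228), an adult fast myosin, and Casq1 (-2.27; 0.0135), a calcium-binding protein of the fast fiber, were called lower, Myh1 no longer without diabetic wound replicate 2 (0.0521). Of all genes edgeR called 8.44% lower there. In diabetic against healthy wounds 16 of 18 were positive with a median of 0.99, the opposite sign to the 9 genes. There edgeR and either limma-voom fit called 0 (5 at an unadjusted p under 0.05 in edgeR), and DESeq2 called 4. Of all genes edgeR called 4.02% lower and 5.13% higher in this comparison. DESeq2 called 18.6%, limma-voom 9.33% and limma-voom with quality weights 23.8% in either direction.

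Because the amount of muscle varied between libraries, the fit was repeated with the adult muscle index as a covariate, for every gene in the table. With it, edgeR called 0 of the 9 genes in each comparison, where it called 0.672%, 21.6% and 4.96% of all genes in healthy wounds against normal skin, diabetic wounds against normal skin and diabetic against healthy wounds. At an unadjusted p under 0.05 the counts were 2, 2 and 4 of 9, beside 13.7%, 36.9% and 26.9% of all genes. At equal adult muscle index 8 of 9 values were positive in healthy wounds against normal skin, with a median of 1.04 beside -0.02 for all genes. The highest were Myf5 at 2.83 (SE 1.02; edgeR adjusted p 0.217) and Pax7 at 2.50 (SE 0.99; 0.266). In diabetic wounds against normal skin Myh8 stood at -4.94 (SE 1.92) and Ncam1 at -1.90 (SE 0.74), both with an edgeR adjusted p of 0.0773. In diabetic against healthy wounds Ncam1 stood at -2.25 (SE 0.63; edgeR adjusted p 0.0536) and Myh8 at -4.58 (SE 1.49; 0.0772), beside -2.05 and -3.94 without the covariate. In this last comparison 7 of the 9 genes were called without diabetic wound replicate 3, the diabetic library with the least adult muscle RNA. The number was 2 without normal skin replicate 2. The shares of all genes called in these fits are not given here, so neither number can be set against one. Without the covariate, the number of all genes called there ranged from 256 to 2936 with 1 library left out.

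**Figure D2:**
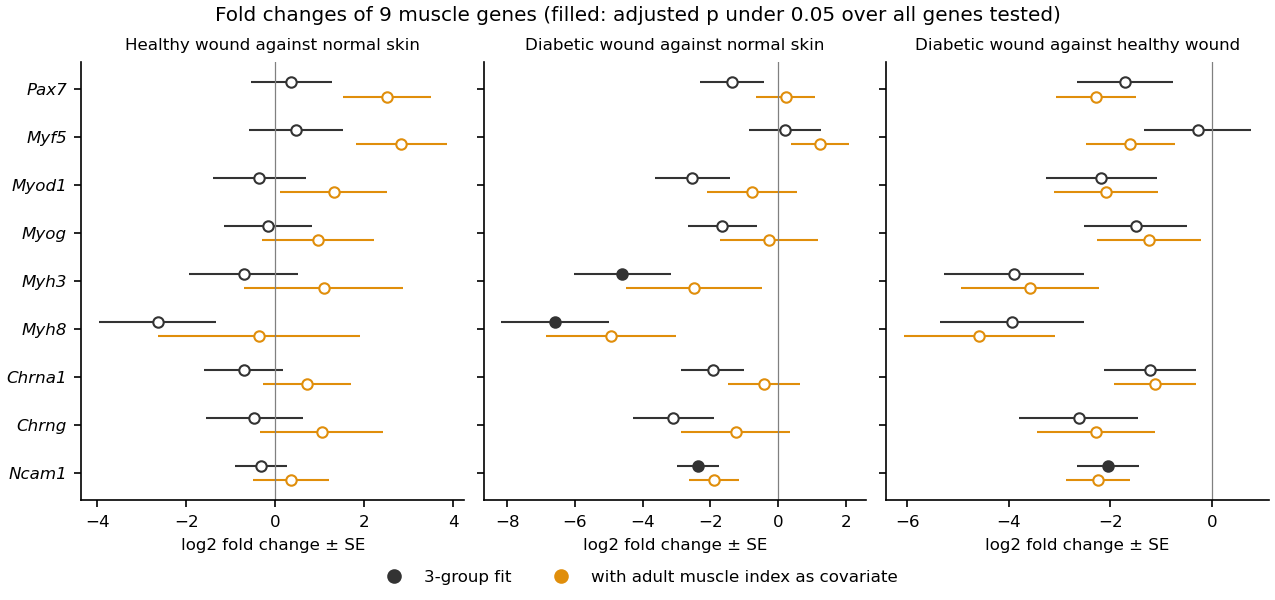
The log2 fold change ± SE of the 9 genes (horizontal axis) in the 3 comparisons, from the edgeR fit of 3 groups (black) and from the fit with the adult muscle index as covariate (orange); filled points have an adjusted p under 0.05 over all genes tested. In the black fit Myh3, Myh8 and Ncam1 are filled in diabetic wounds against normal skin and Ncam1 in diabetic against healthy wounds, and no orange point is filled.

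Ratios within a library do not depend on its scaling. Embryonic Myh3 was set against the adult fast myosins Myh1, Myh2 and Myh4 together. As a share of the 4 genes' counts, Myh3 made up 1.27%, 3.16%, 0.462%, 0.238% and 0.505% in normal skin, 13.1%, 1.85%, 2.81%, 2.27% and 3.03% in healthy wounds, and 0.449%, 0.018%, 1.33%, 0.034% and 0.001% in diabetic wounds. Every diabetic wound lay below every healthy wound, and 4 of 5 normal skin libraries lay below all healthy wounds. The exact Clopper-Pearson 95% interval of the highest share was 12.7% to 13.5% and that of the highest diabetic wound 1.13% to 1.56%, which cover counting error only. The mean log2 ratio was -7.06 ± 1.47 in normal skin, -4.80 ± 1.19 in healthy wounds and -10.83 ± 3.98 in diabetic wounds (SD, n = 5 per group).

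The difference of diabetic from healthy wounds was -6.03 on the log2 scale, with an exact two-sided permutation p of 0.00794, the smallest that 5 against 5 libraries allow, and a Benjamini-Hochberg adjusted p of 0.0476 over 6 ratio tests. Leaving out any 1 of the 5 healthy wounds raised the adjusted p to between 0.131 and 0.175, and leaving out any 1 of the 5 diabetic wounds left it at 0.0476. Healthy wounds were 2.26 above normal skin (exact permutation p 0.0397; adjusted 0.119), and without normal skin replicate 2 the value was 2.79 with an adjusted exact permutation p of 0.0238. Diabetic wounds differed from normal skin in this ratio by -3.77 (exact permutation p 0.0873; adjusted 0.175), and without diabetic wound replicate 3 the difference was -4.93 with an adjusted exact permutation p of 0.0476. Between diabetic and healthy wounds neither side of the ratio passed the edgeR test by itself, with Myh3 at an adjusted p of 0.0839. Myh4, the fastest adult myosin, was at 1112, 3168, 155, 3240.4 and 7237 CPM in diabetic wounds, while in healthy wounds its median was 700 CPM. Its log2 fold change between these groups was 2.17 (SE 0.84; edgeR adjusted p 0.105), and Myh1 and Myh2 stood at 0.48 (SE 0.71; 0.688) and -0.74 (SE 1.08; 0.68).

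The fetal subunit Chrng was likewise set against the adult subunit Chrne. Chrng made up 98.3%, 76.9%, 93.8%, 48.1% and 100% of their summed counts in normal skin, 99.5%, 94.5%, 93.4%, 100% and 41.2% in healthy wounds, and 95.7%, 72.7%, 96.4%, 66.7% and 67.9% in diabetic wounds. Chrng counts exceeded Chrne counts in 13 of the 15 libraries, and the groups overlapped. The Chrng model is 4163 bp long and the Chrne model 1690 bp, and neither the shares nor this number was corrected for length. They therefore do not show which subunit had more RNA in a library. The totals were small in several libraries, as few as 9 counts in diabetic wound replicate 4, where the exact Clopper-Pearson 95% interval ran from 29.9% to 92.5%. The mean log2 ratio was 3.32 ± 2.48, 3.94 ± 2.86 and 2.39 ± 1.81 (SD, n = 5 per group). The differences were 0.63 for healthy wounds against normal skin, -0.93 for diabetic wounds against normal skin and -1.56 for diabetic against healthy wounds, with exact two-sided permutation p-values of 0.754, 0.492 and 0.333. The Chrne model overlaps an antisense model, and the library kit does not mark strand; that model held 5 counts over all libraries.

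**Figure D3:**
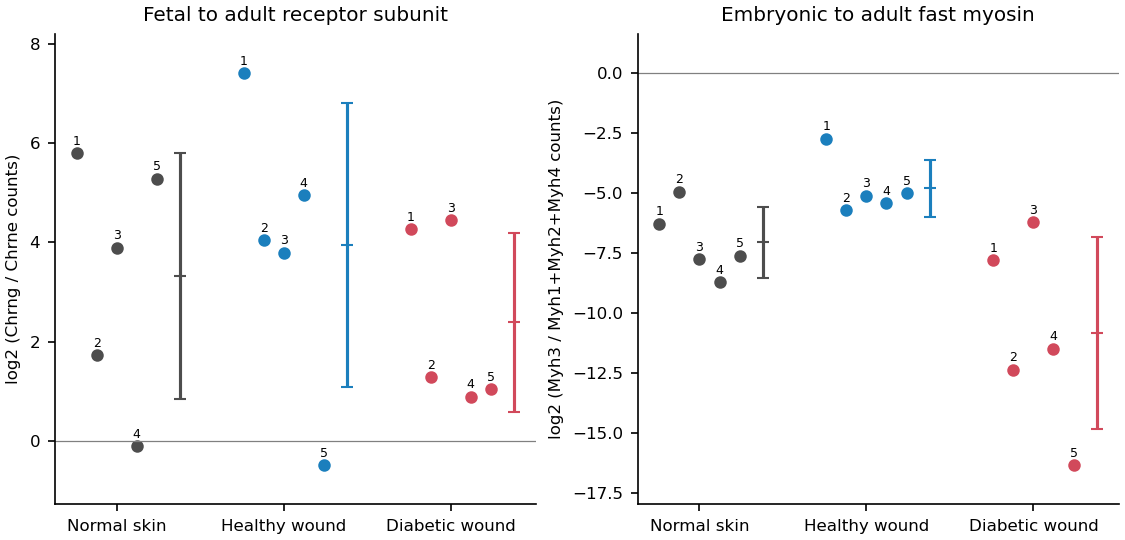
The log2 ratio of Chrng to Chrne counts (left) and of Myh3 to summed Myh1, Myh2 and Myh4 counts (right) in each library, with the replicate number above each point and the group mean ± SD beside it. In the right panel all diabetic wounds lie below all healthy wounds, and diabetic wounds spread from -16.32 to -6.21; in the left panel the groups overlap.

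Most of the 9 genes varied in a pair of looser sets over the 15 libraries. This is given as a description with no test, since the libraries share groups and muscle content. Myod1, Myog, Chrna1 and Chrng formed the first, with Pearson r of log2 CPM of 0.93 between Myod1 and Myog, 0.88 between Myog and each of Chrna1 and Chrng, and 0.89 between Chrna1 and Chrng. Spearman rho for the same 4 pairs was 0.93, 0.84, 0.82 and 0.84, with rho of Myog and Chrna1 given before that of Myog and Chrng. Myh3, Myh8 and Ncam1 formed the second, with r of 0.94 between Myh3 and Ncam1, 0.91 between Myh8 and Ncam1, and 0.88 between Myh3 and Myh8. After each group's mean was subtracted, r was 0.94 for Myod1 and Myog and 0.88, 0.82 and 0.78 for those 3 pairs in turn. Between the sets values were lower, as low as 0.22 for Myh8 and Chrna1. Pax7 and Myf5 were in neither set. Pax7 had r of 0.78 with Myod1, 0.71 with Myh3 and 0.70 with Myog, and the highest r of Myf5 was 0.61, with Pax7. The adult muscle index followed Myf5 at r = 0.70, Myod1 and Chrna1 at 0.54 each, Pax7 at 0.51, Chrng at 0.45 and Myog at 0.41, and Myh3, Myh8 and Ncam1 at 0.19, 0.14 and 0.14. After each group's mean was subtracted, r with the index was 0.35, 0.30 and 0.32 for these last 3 genes and 0.48 (Myog) to 0.79 (Myf5) for the other 6.

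**Figure D4:**
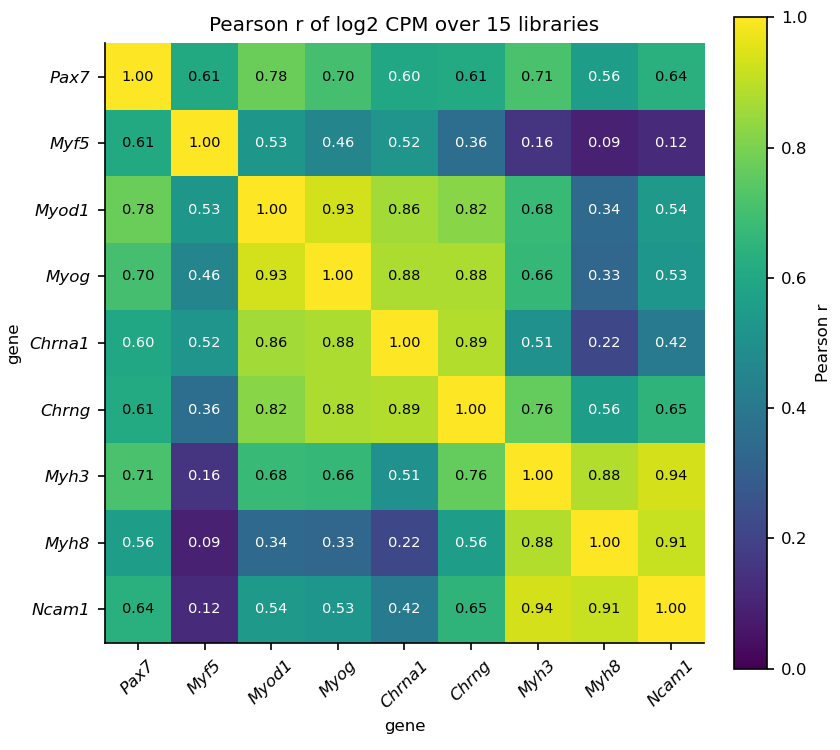
Pearson r of log2 CPM over the 15 libraries for each pair of the 9 genes, ordered so that the factors come first and the developmental myosins and Ncam1 last; colour runs from 0 to 1. The high blocks are Myod1, Myog, Chrna1 and Chrng (0.82 to 0.93) and Myh3, Myh8 and Ncam1 (0.88 to 0.94), and Myf5 has the lowest values.

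Among tested genes with a mean of at least 1 CPM, those most like each of the 9 by Pearson r over 15 libraries were in part other muscle genes. For Chrna1 and Chrng the closest was Chrnd, the delta subunit of the same receptor, at r of 0.95 each. Its CPM was 55.1, 9.47, 35.5, 3.79 and 3.90 in normal skin, 24.7, 17.0, 19.4, 1.01 and 1.89 in healthy wounds, and 4.90, 3.14, 5.86, 2.86 and 3.74 in diabetic wounds, so that the low replicates 4 and 5 of the healthy-mouse groups recurred. Chrnd was also the second closest to Myod1 and Myog, at 0.90 each, and Arpp21 (0.90) came next for Myod1. Scx (0.90), a tendon transcription factor, and Cdh15 (0.89), the cadherin of myoblasts and satellite cells, followed Chrna1.

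For Myh3 the closest genes were Ncam1 (0.94), Mymk (0.93), which encodes the fusion protein myomaker, and Casq2 (0.92), the calsequestrin of cardiac and slow fibers. For Myh8 they were H19 (0.94), an imprinted noncoding RNA of fetal tissue and regenerating muscle, Ncam1 (0.91) and Itfg1 (0.90). Those of Ncam1 were Fam129a (0.95), Myh3 and Zdhhc1 (0.93). Among the genes closest to Pax7 were Piezo1 (0.87) and Zdbf2 (0.85), and those of Myf5 were Ubxn11 (0.88), Enpp4 (0.82) and Ablim3 (0.82), on few counts.

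Of 12 further genes of satellite cells and myoblasts, 10 could be tested, and 2 of them differed in the diabetic wounds: Sdc4 rose and Heyl fell. Of all genes, 10.7% rose and 8.44% fell against normal skin, so a count of 1 of 10 in each direction is near the share of all genes. Sdc4 encodes syndecan 4, a cell surface proteoglycan of satellite cells that epidermis and other wound cells also make. It was at 163, 181, 157, 158 and 174 CPM in normal skin, 122, 218, 248, 111 and 114 CPM in healthy wounds, and 353, 697, 229.9, 459 and 1979 CPM in diabetic wounds. The log2 fold change was 2.16 against normal skin (SE 0.48; edgeR adjusted p 0.00849) and 2.19 against healthy wounds (SE 0.48; 0.0193). Diabetic wound replicate 5 was the highest, and without it the values were 1.38 and 1.42; the second call was lost without healthy wound replicate 1 (adjusted p 0.0507) or 5 (0.0537). Heyl, a Notch target that keeps satellite cells quiescent and is also made in vessel walls, was at 2.06 to 6.64 CPM in diabetic wounds against 8.53 to 23.1 in normal skin and 10.3 to 22.4 in healthy wounds. It fell by 1.43 against normal skin (SE 0.37; edgeR adjusted p 0.0169) and by 1.98 against healthy wounds (SE 0.37; 0.014), and both calls held without each library in turn. Of the others, Vcam1, an adhesion receptor, stood at -1.46 against healthy wounds (edgeR adjusted p 0.0519), where DESeq2 and either limma-voom fit called it lower. Megf10, a receptor of satellite cells, stood at -1.38 against normal skin (edgeR adjusted p 0.149). These 3 fits also called Sdc4 and Heyl in both comparisons, and limma-voom called Chodl lower against normal skin. The shares of all genes that they called are given with the fusion genes below. The list's median log2 fold change was 0.08, -0.65 and -0.23 in healthy wounds against normal skin, diabetic wounds against normal skin and diabetic against healthy wounds. Pax3 and Calcr had too few counts to test.

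Of 12 genes of fusion and the early fiber, all tested, 2 were lower in diabetic wounds against normal skin, Mef2c and Actc1, beside 8.44% of all genes. Mef2c, a partner of the myogenic factors that vessels also make, stood at -1.91 (SE 0.53; edgeR adjusted p 0.0246), a call lost without normal skin replicate 1 (0.0517) or 2 (0.0611) or diabetic wound replicate 2 (0.0591). Actc1, the cardiac actin that new fibers make, was at 10.6, 241, 4.48, 6.97 and 76.4 CPM in normal skin, 191, 15.1, 30.0, 16.7 and 14.7 CPM in healthy wounds, and 7.99, 0.898, 2.93, 3.10 and 5.91 CPM in diabetic wounds. All diabetic wounds lay below all healthy wounds. Its log2 fold change was -4.02 against normal skin (SE 1.17; edgeR adjusted p 0.0278) and -3.68 against healthy wounds (SE 1.15; 0.0555). The first value was -2.51 with an adjusted p of 0.0953 without normal skin replicate 2, and its call was also lost without diabetic wound replicate 2 (0.0637) or 5 (0.0554). Mymx, which encodes the fusion protein myomixer, stood at -3.18 against healthy wounds (SE 1.19; edgeR adjusted p 0.0986). Against healthy wounds edgeR called 1 of the 12 higher and 0 lower, beside 5.13% and 4.02% of all genes. The gene called was Igfn1, an immunoglobulin-like protein of muscle, which rose by 5.36 (SE 1.42, edgeR adjusted p 0.0342). Its level was 133 CPM in diabetic wound replicate 4, where the other 4 diabetic wounds lay between 0.0603 and 21.7 CPM; without that library the value was 3.02 (adjusted p 0.0784), and the call was also lost without diabetic wound replicate 2 (0.0657) or any healthy wound (0.063 to 0.0771). In diabetic wounds against normal skin DESeq2 called Mef2c, Actc1 and Myl4 lower, and either limma-voom fit called Mef2c alone. Against healthy wounds DESeq2 called Actc1, Myl4 and Mymx lower and Igfn1 higher, and either limma-voom fit called 0. Of all genes DESeq2 called 28.2% and 18.6% in these comparisons, in either direction. For limma-voom the shares were 20.1% and 9.33%, and with quality weights 23.6% and 23.8%. The list's median was -0.13, -0.89 and -0.74 in the same order of comparisons.

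Of 12 genes of the neuromuscular junction, all tested, 3 were lower in diabetic wounds against normal skin, beside 8.44% of all genes, and all 12 values were negative there. These were Ache, the enzyme that breaks down acetylcholine, at -2.08 (SE 0.41; edgeR adjusted p 0.00533), and Colq, the collagen tail that anchors it, at -2.94 (SE 0.59; 0.00539). The last was Lrp4, the receptor of agrin, at -1.54 (SE 0.39; edgeR adjusted p 0.0165), and all 3 calls held without each library in turn. Colq was at 3.44 to 5.85 CPM in normal skin and 0.181 to 1.10 CPM in diabetic wounds, with no overlap, and at 0.723 to 6.22 CPM in healthy wounds. It was also lower against healthy wounds, by 2.37 (SE 0.58; edgeR adjusted p 0.0276), a call lost without healthy wound replicate 1 (0.0677) or 4 (0.057) or diabetic wound replicate 2 (0.0702) or 5 (0.0599). Agrn, the nerve and skin signal that clusters receptors, stood at -1.34 there (SE 0.39; edgeR adjusted p 0.0456), but at -0.79 (0.116) without healthy wound replicate 2, which held 388 CPM against 106 to 126 CPM in the other healthy wounds. The Agrn call was kept only without 3 of the 15 libraries. In healthy wounds against normal skin Ache had the lowest p of the list, at -1.70 (SE 0.41; edgeR adjusted p 0.0561). In diabetic wounds against normal skin either limma-voom fit called Lrp4, Ache and Colq lower, and DESeq2 called Chrnd and Chrne besides. Against healthy wounds, where edgeR called 4.02% of all genes lower, DESeq2 called Agrn and Colq. There limma-voom called Agrn alone, and with quality weights it called 0. The shares of all genes that these fits called are given with the fusion genes. The list's median was -1.03, -0.86 and -0.33.

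Of 10 genes of denervation and atrophy, 9 were tested, and those called, 1 against normal skin and 2 against healthy wounds, were higher in diabetic wounds (10.7% and 5.13% of all genes were), opposite in direction to Myh3, Myh8 and Ncam1. Trim63 encodes MuRF1, a ubiquitin ligase of wasting muscle. It was at 321, 44.3, 171, 25.9 and 9.15 CPM in normal skin, 67.4, 32.9, 79.5, 3.43 and 3.05 CPM in healthy wounds, and 240, 591, 54.9, 989 and 1210 CPM in diabetic wounds. Only diabetic wound replicate 3, which had the least adult muscle RNA of its group, fell inside the healthy wound range. Against healthy wounds the log2 fold change was 4.05 (SE 1.15; edgeR adjusted p 0.0411), kept as a call without 6 of the 15 libraries and otherwise at 0.0523 to 0.0885 (range of values 3.65 to 4.53). Against normal skin it was 2.43 (SE 1.07; edgeR adjusted p 0.116). With the adult muscle index as covariate, it was 3.93 against normal skin (SE 0.54, edgeR adjusted p 0.000861), called without each library in turn. That fit called 21.6% of all genes there, in either direction. It called 3 of 9 denervation genes higher and 0 lower. Of 18 adult muscle genes it called 4 higher and 1 lower, and of 12 junction genes 1 higher and 3 lower. Of 10 satellite cell genes it called 2 higher and 1 lower, and of 12 fusion genes 0 higher and 1 lower. The Trim63 value with the index was 2.85 against healthy wounds (SE 0.52, edgeR adjusted p 0.0205), where the fit called 4.96% of all genes. That call was lost without healthy wound replicate 1 (0.0519) or 3 (0.0578).

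Fbxo30, a ubiquitin ligase needed for denervation atrophy in mice, was at 31.6 to 67.3 CPM in diabetic wounds, 26.4 to 34.1 CPM in normal skin and 27.6 to 33.8 CPM in healthy wounds. It rose by 0.72 against normal skin (SE 0.19; edgeR adjusted p 0.0179), a call kept without each library in turn, and by 0.64 against healthy wounds (SE 0.19; 0.0454), a call kept without only 3 of the 15. Fbxo32, the ubiquitin ligase atrogin 1, stood at 1.77 against healthy wounds (SE 0.70; edgeR adjusted p 0.112), and with the index at 1.35 against normal skin (SE 0.37; 0.021), the latter lost without normal skin replicate 4 (0.053) or 5 (0.0638) or diabetic wound replicate 5 (0.0522). Sln, sarcolipin, a brake on the calcium pump, stood at -1.49 against normal skin (SE 0.65; edgeR adjusted p 0.115). In diabetic wounds against normal skin DESeq2 and either limma-voom fit called Fbxo30 alone, as higher. Against healthy wounds DESeq2 called Trim63, Fbxo32 and Fbxo30 higher, limma-voom Trim63, and limma-voom with quality weights Trim63 and Fbxo30. The shares of all genes that these fits called are given with the fusion genes. The list's median was -1.13, 0.15 and 0.66, and Dach2 had too few counts to test.

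In healthy wounds against normal skin edgeR called 0 genes in each of these 4 lists, and at an unadjusted p under 0.05 the counts were 2 of 10 satellite cell genes, 2 of 12 fusion genes, 3 of 12 junction genes and 2 of 9 denervation genes, beside 16.3% of all genes. DESeq2 called 0, 1, 2 and 1 of them in that order, limma-voom 0, 0, 1 and 0, and limma-voom with quality weights 2, 1, 2 and 0. Of all genes, these 3 fits called 6.72%, 1.11% and 11%. The genes of smallest p were Vcam1 (1.19), Chodl (-1.85) and Megf10 (-1.07) among satellite cell genes and Igfn1 (-3.56), Mef2c (-1.23) and Myf6 (-1.57) among fusion genes. Those of the junction were Ache, Lrp4 (-1.24) and Scn4a (-1.91), and those of denervation Eda2r (-1.74), Hdac4 (-0.73) and Fbxo32 (-1.38), each as a log2 fold change.

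**Figure D5:**
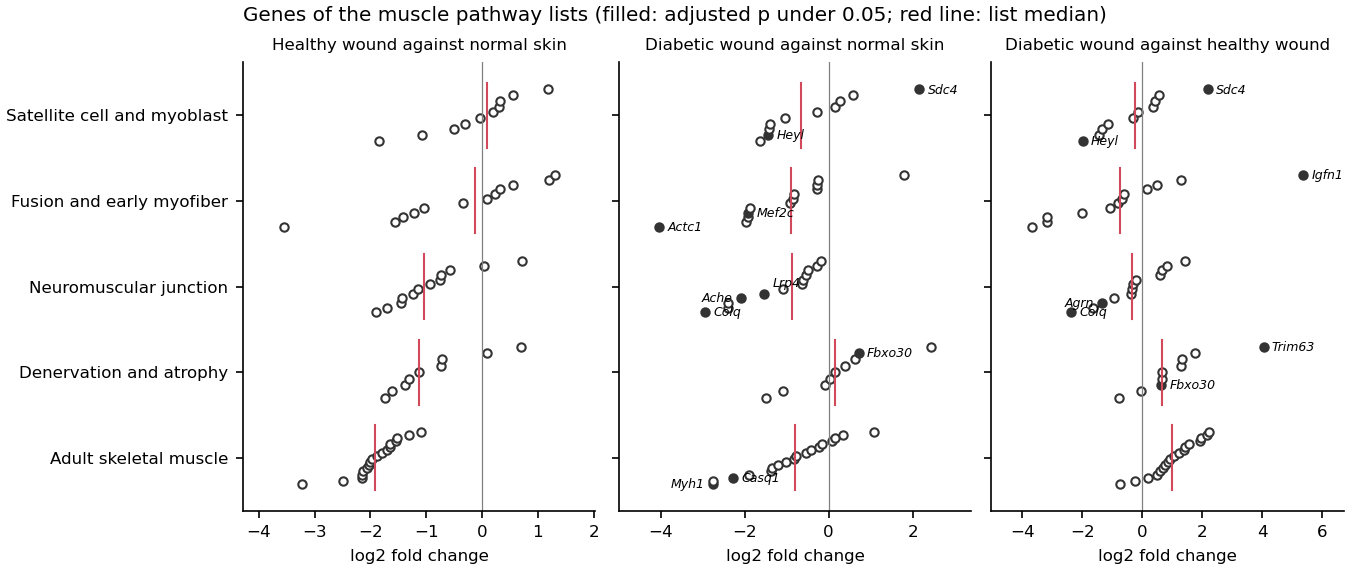
The log2 fold change (horizontal axis) of each tested gene of the 4 muscle lists and of the adult skeletal muscle list in the 3 comparisons; filled points have an edgeR adjusted p under 0.05 over all genes tested, and a red line marks the list's median. No point is filled in healthy wounds against normal skin, and in the diabetic wound comparisons the filled points of the denervation list lie above 0 and those of the junction list below 0.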

How the data were processed

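The deposited values were raw read counts, whole numbers for each gene model, which the authors made from poly-A libraries of a kit that does not mark strand, per the labels. The aligner, counting program and genome build were not given in the sources used here. Coordinates are the table's; those of the 9 genes lay within 1154 bp of the RefSeq GRCm38.p6 annotation. The diabetic columns were assigned to replicates by the library names in the labels.

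Counts were tested with edgeR 4.0.16 (robust quasi-likelihood F-test after filterByExpr and TMM scaling) in R 4.3.3 with all 3 groups in 1 model (12 residual degrees of freedom), and p-values were adjusted by Benjamini-Hochberg over the 17122 genes tested, with calls under 0.05. CPM used TMM-scaled library sizes, and log2 CPM a prior count of 2. The ratios used a pseudocount of 0.5 and exact permutation tests. The covariate was the mean log2 CPM of 18 adult muscle genes. The edgeR procedure was tested on simulated data. Pairs of libraries within a group differed in counts by a chi-square per degree of freedom of at least 39.5, 36.1 and 70.5, so no pair agreed within counting noise.

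The 9 genes and all lists were chosen with earlier results of these data known. All 9 are named, then called genes of each list, otherwise the 3 of smallest p, and the 3 most correlated genes with a name. Tried as alternatives were other scalings (RLE, upper quartile, library size), no filter and a stricter one, DESeq2 1.42.0, limma-voom (limma 3.58.1) without and with quality weights per sample, a model of only the 2 groups compared, a block for the replicate number, a log2 fold change of at least 1 as the null, the adult muscle index as an offset, other pseudocounts, and each library left out in turn, or both diabetic wound replicates 4 and 5. Sequences were not used here. A gene that the rule for named genes selected is not reported here.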

Additional observations from a re-analysis of the deposited data

Results flagged for a closer look

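Of 33 sets of 5 values tested for a single library far from the rest of its group by Dixon's criterion, 5 were flagged. Chance flags about 1 in 20 where values are normally distributed, which was not tested for these sets. Healthy wound replicate 1 held 3.78 CPM of Myf5, where the other healthy wounds held 0 to 1.08 CPM. The same library held 236 CPM of Myh3 against 8.88 to 63.8 CPM in the others, and its log2 ratio of Myh3 to adult fast myosins was -2.73 against -5.73 to -5.00. Normal skin replicate 2 held 1458 CPM of Myh8 against 5.48 to 31.1 CPM in the other normal skin libraries. Diabetic wound replicate 1 held 11.4 CPM of Myh8 against 0.513 to 2.56 CPM in the other diabetic wounds. Healthy wound replicate 1 also had the highest summed level of neutrophil genes of the 15 libraries, 3902 CPM, and normal skin replicate 2 the highest summed level of adult muscle genes, 45794 CPM; their part in these values was not tested.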

How the results depend on the processing

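Scaling by RLE, upper quartile or library size, and the stricter filter, changed no count of calls by over 1.5 times, and the scalings turned no direction of the 9 genes. Of 9 genes, the number called in diabetic wounds against normal skin (3) was 1 with the 2 groups alone and 0 with either limma-voom fit, a minimum log2 fold change of 1, or diabetic wound replicates 4 and 5 left out together. It was 1 to 3 with 1 library left out. In diabetic against healthy wounds (1) it was 2 with DESeq2, limma-voom with quality weights or the 2 groups alone, 0 with limma-voom, no filter, the minimum fold change or without those 2 libraries, and 0 to 2 with 1 library left out. With the adult muscle index as an offset, 1 (Myh8) was called in each diabetic wound comparison. That fit moved all genes, with a median log2 fold change of 0.70 (17.7% negative) against normal skin and -1.05 (95.3% negative) against healthy wounds. With the index as a covariate and 1 library left out, 0 to 1 were called against normal skin and 0 to 7 against healthy wounds. The shares of all genes called in these fits are not given here.

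Over all genes, healthy wounds against normal skin gave 193 calls, and 91 with no filter, 1147 with DESeq2, 1882 with limma-voom with quality weights, 530 with the 2 groups alone, 2 with the minimum fold change, 616 without diabetic wound replicates 4 and 5, and 3 to 387 with 1 library left out. Diabetic wounds against normal skin gave 3272, and 2138 with no filter, 1535 with the 2 groups alone, 204 with the minimum fold change, 2062 without diabetic wound replicates 4 and 5, and 2064 to 3827 with 1 library left out. Diabetic against healthy wounds gave 1567, and 574, 3174, 4071, 945, 2 and 722 under the settings named for the first comparison, and 256 to 2936 with 1 library left out.

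Directions that turned were of values not called. In healthy wounds against normal skin, limma-voom gave Myf5 -0.68, Myh3 0.17, Myh8 0.19 and Ncam1 0.24, and quality weights gave -0.22, 0.66, 1.08 and 0.30. Myf5 was -0.17 and -0.0187 in diabetic wounds against normal skin and 0.51 and 0.20 against healthy wounds in these 2 fits, and -0.29 against normal skin without diabetic wound replicates 4 and 5. With 1 library left out, values in healthy wounds against normal skin ran from -0.31 to 1.02 for Pax7, -1.01 to 1.01 for Myf5, -1.45 to 0.74 for Myod1, -1.20 to 0.66 for Myog, -1.94 to 0.66 for Myh3, -2.96 to 1.31 for Myh8, -1.25 to 0.21 for Chrna1, -1.32 to 0.27 for Chrng and -0.58 to 0.22 for Ncam1. Myf5 ran from -0.13 to 0.73 in diabetic wounds against normal skin and from -0.60 to 1.21 against healthy wounds. The Chrng to Chrne log2 ratio of healthy wounds against normal skin ran from -0.24 to 1.73. The Myh3 ratio ran from 1.74 to 2.79, -4.93 to -2.40 and -7.19 to -4.66 in the 3 comparisons. Why these values moved was not tested.

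The replicate numbers of the labels were not taken to pair the libraries, which needed an r over 0.1 in all 5 pairs: this held in 4, 0 and 1 of 5. Same-numbered deviations from the group means correlated at -0.05 to 0.24, -0.20 to 0.01 and -0.21 to 0.10 in the 3 comparisons, and 2, 0 and 1 of 5 libraries correlated best with their own number. With the replicate number as a block, 3 of the 9 genes were called in diabetic wounds against normal skin and 0 against healthy wounds, 2 relative to adult muscle in the former, and 91, 2207 and 173 of all genes. Under this block the Myh3 ratio of -6.03 between wounds had an adjusted exact permutation p of 0.375, where 5 pairs allow no p below 0.0625 unadjusted. Healthy wounds against normal skin under the block gave Myf5 -0.10, Myh3 0.0056, Myh8 0.46 and Ncam1 0.092, and diabetic against healthy wounds gave Myf5 0.85. Levels of a few counts, as for Myf5, Pax7 and Chrne, limit what depth can show.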
